A study of Rattus norvegicus with 4 samples.

Results

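The 9 transcription factors that hold the identity of the pancreatic beta cell, namely Pdx1, Mafa, Neurod1, Nkx6-1, Nkx2-2, Pax6, Isl1, Foxa2 and Rfx6, were followed in INS-1 cells grown in bioprinted hydrogel and in monolayer. They were taken by name, as 9 of the 23360 gene symbols listed, and the value of a gene was the sum over the transcripts under its symbol. INS-1 832/3 is a rat insulinoma line that secretes insulin, carries the human insulin gene and is kept under Geneticin. Messenger RNA was sequenced from 2 standard monolayer cultures (2D) and from 2 cultures bioprinted in GelXA LAMININK 411 (3D), a gelatin-based hydrogel with laminin-411. All 4 were grown in the same supplemented RPMI-1640 medium and harvested after 5 days at passage 3. The labels call them biological replicates of 1 cell line, so p-values measure the spread between 2 cultures per group, and not between animals or lines.

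In the beta cell these factors form a network. PDX1, NKX6-1, NKX2-2, PAX6 and ISL1 carry homeodomains, MAFA is a basic leucine zipper factor, NEUROD1 a basic helix-loop-helix factor, FOXA2 a forkhead factor and RFX6 a winged-helix factor. PDX1, MAFA and NEUROD1 act together on the insulin promoter. The other factors set up or maintain the endocrine and beta-cell programme, and some of them keep the programmes of neighbouring islet cells silent.

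Values are TPM, transcript abundances corrected for length and scaled to the same total in each sample, so levels of different genes can be set side by side. Samples were scaled by factors from 0.960 to 1.02, and scaled TPM are given throughout. Read depth is not kept in TPM, and counting error is therefore unknown. Of 9 beta-cell markers 8 were listed, and all 8 had a mean of at least 1 TPM, a level that single markers of other cells also reached. The beta-cell markers summed to between 145889 and 166975 TPM per sample, most of it Ins1, which matched the label of the line. Markers of other cells were low. Summed over each list, acinar markers lay between 5.66 and 7.80 TPM, with Cpa1, Cpb1, Cela2a, Prss1 and Pnlip at 0 in all 4 samples, and duct markers lay between 16.1 and 22.2 TPM, nearly all of it Krt7. Endothelial markers summed to between 16.9 and 19.98 TPM, nearly all of it Esam, with Cdh5 at 0. Fibroblast markers summed to between 1.89 and 2.33 TPM with Dcn, Pdgfrb and Lum at 0, and immune markers to at most 1.45 TPM with Ptprc at 0. Without overlap between the groups, as in 75.5% of all genes tested, the acinar sum was lower and the fibroblast and immune sums were higher in 3D. Most of each sum was a single gene, Ctrb1, Pdgfra and Cd68 in that order. The part of these markers in the results was not tested. In bulk RNA a smaller share of cells that express a gene and less of its RNA per cell cannot be told apart.

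Pax6 and Isl1 rose in 3D culture, no factor fell past the threshold, and the other 7 did not pass the test. All 9 factors passed the filter of a mean of at least 1 TPM. In limma's moderated test over 11960 genes, with p-values adjusted by the Benjamini-Hochberg method, 2 of the 9 factors (22.2%) were called at an adjusted p below 0.05. Among factors lower in 3D, 0 were called, and 1, Pdx1, had an unadjusted p below 0.05 in limma. This compares with calls for 38.0% of the whole set of genes, 18.5% in the upward and 19.5% in the downward direction. The groups did not overlap in 4 of the 9 factors (44.4%), against 75.5% of all genes. For 2 of these factors, Pax6 and Isl1, both 3D values were the higher ones, as in 37.3% of all genes, and for the other 2, Pdx1 and Rfx6, both were the lower ones, as in 38.2%. Which factors overlapped depended on the scaling. On TPM as deposited the groups of Rfx6 overlapped, while those of Mafa and Nkx6-1 did not and were higher in 3D. The median log2 fold change on the log2(TPM + 1) scale, called log2 change from here on, was 0.039 for the factors, and their median absolute change was 0.11, beside -0.0031 and 0.22 over all genes. With TPM rescaled after leaving out the insulin genes, 59.6% of all calls were higher in 3D culture, in place of 48.7%. The number of calls over all genes went from 4541 to 136 without 3D replicate 1 and to 1037 without 3D replicate 2, and the 2 factors called higher became 0 without 3D replicate 1 and 1 without 3D replicate 2. Without 2D replicate 1 there was 1 factor called higher, Pax6, and 1 called lower, Pdx1. For 1 gene, exact two-sided permutation p-values have a floor of 0.33 in a design of 2 by 2.

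**Figure D1:**
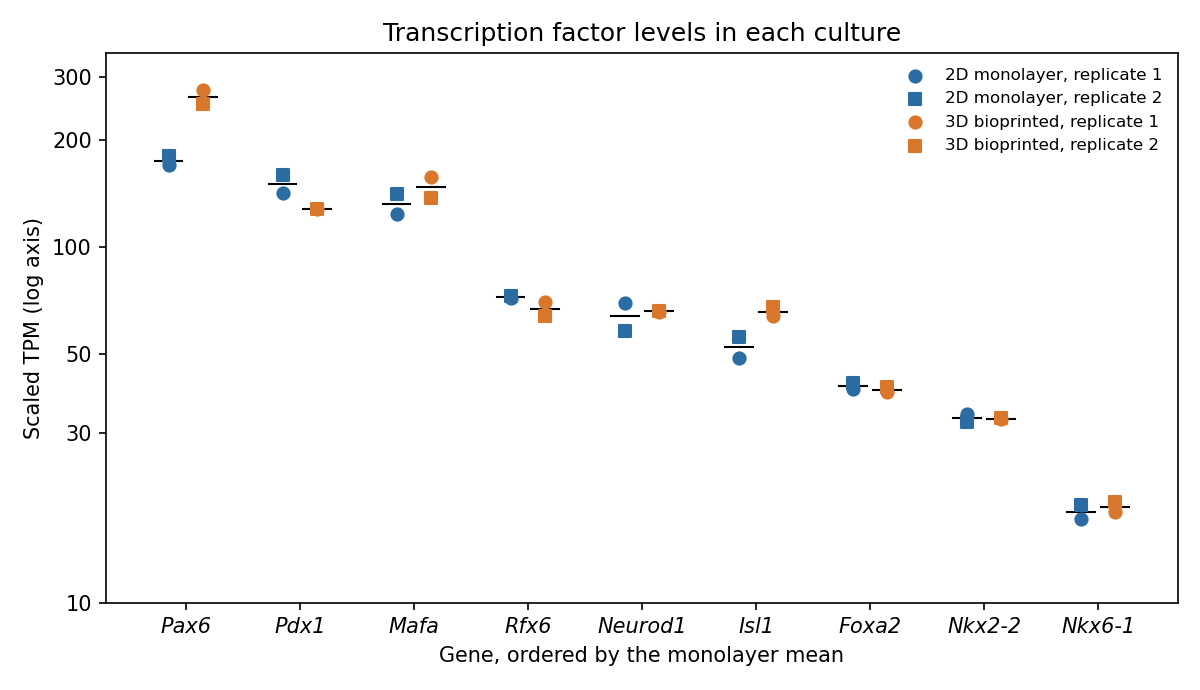
Scaled TPM (log axis) of the 9 transcription factors in each culture, ordered by the monolayer mean, with blue points for 2D monolayer, orange points for 3D bioprinted cultures, circles and squares for replicates 1 and 2, and black lines for the mean of each group. Pax6 is the highest in both groups and Nkx6-1 the lowest, and the orange points lie above the blue ones for Pax6 and Isl1 and below them for Pdx1 and Rfx6.

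The levels spanned nearly an order of magnitude in monolayer and more in 3D culture, where the means ran from 18.5 to 263 TPM. In monolayer, Pax6 was highest with 174 ± 7.66 TPM (SD, n = 2), followed by Pdx1, Mafa, Rfx6, Neurod1, Isl1, Foxa2 and Nkx2-2, and Nkx6-1 was lowest with 18.0 ± 1.12 TPM (SD, n = 2). No neighbours in this order overlapped between the 2 monolayer cultures. On TPM as deposited, Rfx6, with 72.7 and 69.9 TPM in monolayer, overlapped Neurod1, with 70.2 and 55.8 TPM. Pax6 stood at the 94.1 percentile of all genes tested in monolayer and Nkx6-1 at the 53.8 percentile. In 3D culture Mafa stood above Pdx1, in the reverse of the monolayer order, and the values of the cultures did not overlap between these genes in either group. Rfx6, Neurod1 and Isl1 came together in 3D culture, with means of 66.8, 65.9 and 65.7 TPM, and their neighbouring ranges overlapped.

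Pax6, the paired-domain factor that activates several islet hormone genes, showed the largest change of the 9. It had 169 and 180 TPM in the monolayer cultures and 276 and 251 TPM in the 3D cultures. Both 3D cultures lay well above both monolayer cultures, a rise of 51.0% in the mean. The log2 change was 0.59 with a standard error of 0.070 and a 95% confidence interval from 0.41 to 0.77 (limma, adjusted p = 0.0054). Of all genes tested, 9.8% changed by at least as much in either direction. It passed the threshold under all 12 other settings of the processing. Without 3D replicate 1 the log2 change was 0.52 and the adjusted p from limma 0.062.

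The Pax6 signal came from 3 transcripts, and they did not rise in proportion. ENSRNOT00000005882.5, the most abundant, had 95.1 and 93.2 TPM in monolayer, against 136 and 127 TPM in 3D. ENSRNOT00000006302.7 had 53.7 and 64.5 TPM in monolayer, against 75.2 and 72.5 TPM in 3D. ENSRNOT00000089525.1 had 20.2 and 22.2 TPM in monolayer, against 64.2 and 51.5 TPM in 3D. The last of these was 2.73-fold higher in the mean, against 1.40-fold for the first and 1.25-fold for the second. Its share of the Pax6 signal was 12.1% ± 0.280 in the monolayer and 21.9% ± 1.92 in the 3D cultures (SD, n = 2 each), while the shares of the other 2 were lower in 3D culture.

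A limma fit over the 15020 transcripts with a mean of at least 1 TPM, chosen after these values had been seen, called 23.5% of all transcripts at an adjusted p below 0.05 and 10.8% as higher in 3D. It scaled the samples by factors of its own, so its log2 changes differ slightly from those of the gene fit. ENSRNOT00000089525.1 rose by 1.38 on the log2 scale (standard error 0.12, limma adjusted p = 0.016) and ENSRNOT00000005882.5 by 0.46 (adjusted p = 0.019). ENSRNOT00000006302.7 had a change of 0.30 and did not pass (adjusted p = 0.093). It passed under 2 of 5 other settings, TPM as deposited (0.37, limma adjusted p = 0.040) and a filter of 5 TPM (0.34, adjusted p = 0.0499). The rise of ENSRNOT00000089525.1 had an adjusted p of 0.15 without 3D replicate 1, 0.11 without 3D replicate 2 and 0.059 without 2D replicate 2, with log2 changes from 1.23 to 1.54. For ENSRNOT00000005882.5 these were 0.15, 0.12 and 0.065. Shifts of this size were not rare. Among 3225 genes with 2 or more transcripts above 0, 465 (14.4%) had a transcript whose share moved by at least the 9.75 percentage points of this one and did not overlap between groups. Reads shared by transcripts of 1 gene are divided by the quantification, and its error is not in these values. Which exons these transcripts hold was not analysed here.

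**Figure D2:**
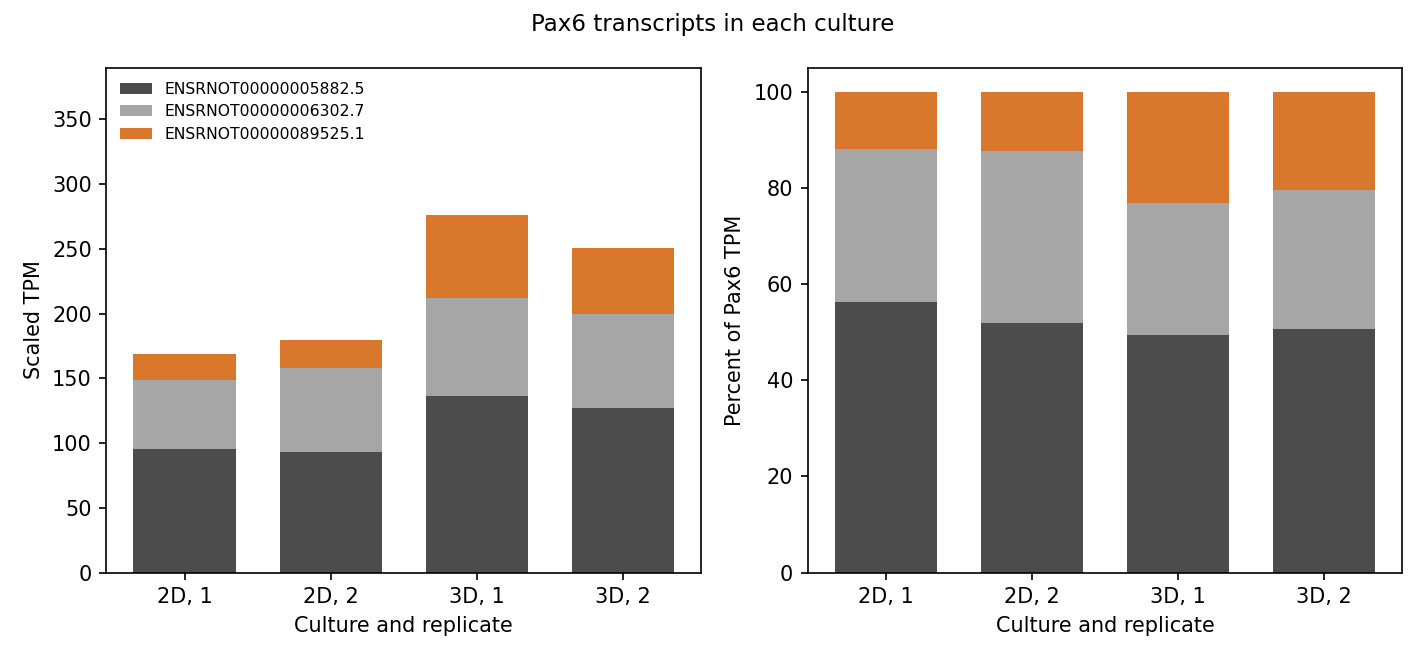
Scaled TPM (left) and percent of the Pax6 TPM (right) of the 3 Pax6 transcripts in each of the 4 cultures, stacked, with 1 bar per culture. The orange segment, ENSRNOT00000089525.1, widens from 20.2 and 22.2 TPM in the monolayer cultures to 64.2 and 51.5 TPM in the 3D cultures.

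Isl1, the LIM-homeodomain factor needed for endocrine differentiation and for the mature beta cell, was the second factor to rise. It had 48.7 and 55.7 TPM in monolayer, against 63.7 and 67.6 TPM in 3D, so the groups did not overlap. The mean was 25.8% higher, with a log2 change of 0.33 and a 95% confidence interval from 0.12 to 0.53 (limma, adjusted p = 0.028). A change of this size or more was found in 32.3% of all genes tested. The only transcript listed for Isl1 has the same TPM as the gene, so the fit over transcripts gives no second measurement. With the scaling and tested set of that fit it did not pass (log2 change 0.31, limma adjusted p = 0.065). The call of the gene was lost without the expression filter, where the adjusted p was 0.072 and the log2 change 0.29. It was also lost without 2D replicate 1 (log2 change 0.23, limma adjusted p = 0.055), without 3D replicate 1 (0.37, adjusted p = 0.12) and without 3D replicate 2 (0.29, adjusted p = 0.15).

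Pdx1, which is required for the pancreas to form and activates the insulin and GLUT2 genes, had the lowest log2 change of the 9. It had 141 and 159 TPM in monolayer, against 128 TPM in both 3D cultures. The 3D values lay below both monolayer values, by 14.8% in the mean. The log2 change of -0.23 had a 95% confidence interval from -0.40 to -0.051, yet its adjusted p over all genes was 0.052 in limma, just above the threshold. A change at least as large was found in 48.6% of all genes tested. Settings on either side of the threshold differed little in size. The adjusted p was 0.048 on TPM as deposited, 0.045 with robust empirical Bayes and 0.043 with the replicate block, and reached 0.085 without an intensity trend. Without 2D replicate 1, the lower of the monolayer values, the log2 change was -0.31 (limma adjusted p = 0.019), and without 2D replicate 2 it was -0.15 (adjusted p = 0.10).

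The stretches before the RefSeq start of Isl1 and of Pdx1 (GRCr8) are shown because these genes are the riser and the lowest factor for which the table holds a start at the edge of the gene span. Each is the 250 bases before the start, on the minus strand and read 5′ to 3′, and capitals mark every CANNTG, the E-box that NEUROD1 and other helix-loop-helix factors bind.
Isl1, chr2:49823443-49823692: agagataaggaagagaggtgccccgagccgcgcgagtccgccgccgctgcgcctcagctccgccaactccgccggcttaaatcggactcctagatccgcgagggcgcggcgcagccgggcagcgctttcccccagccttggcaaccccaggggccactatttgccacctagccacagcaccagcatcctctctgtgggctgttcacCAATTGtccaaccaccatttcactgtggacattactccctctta
Pdx1, chr12:12799157-12799406: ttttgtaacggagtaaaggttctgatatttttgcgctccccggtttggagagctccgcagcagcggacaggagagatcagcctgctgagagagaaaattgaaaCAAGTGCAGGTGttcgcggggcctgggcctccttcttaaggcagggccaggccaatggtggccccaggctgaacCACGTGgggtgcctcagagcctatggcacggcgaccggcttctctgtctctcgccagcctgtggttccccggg

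The Pdx1 stretch held 3 E-boxes, a directly adjoining pair and CACGTG nearer the start, and the Isl1 stretch held 1. The median over 33469 promoters was 1, and 65.5% held at least 1. Of the other motifs searched on both strands, TAAT, the core bound by many homeodomains, occurred once in the Isl1 and not in the Pdx1 stretch (57% of all promoters). TGCTGA, part of the element bound by MAF factors, occurred once in the Pdx1 stretch (15.1%), and GTTGCC, part of the element bound by RFX factors, once in that of Isl1 (9.89%). The forkhead core TGTTTNC (18.3%) and the NKX2 core AAGTGG (13.7%) occurred in neither. These are matches of letters, and binding was not measured here. The table holds 7 of the 9 genes. The stretch held for Pax6, the factor with the largest rise, is not shown. It held 0 E-boxes and no match to any of the other motifs.

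Mafa, Neurod1 and Rfx6 showed small differences that did not pass the test. Mafa, the factor of the mature beta cell that binds the insulin promoter, had 124 and 140 TPM in monolayer, against 157 and 137 TPM in 3D. The groups overlapped, since 3D replicate 2 lay between the monolayer values. The 95% confidence interval of the change ran from -5.17% to 31.4% (log2 change 0.16, limma adjusted p = 0.22). On TPM as deposited the groups did not overlap, with 125 and 135 TPM in monolayer, against 159 and 141 TPM in 3D. There too Mafa did not pass (log2 change 0.20, limma adjusted p = 0.092). Neurod1 had 69.4 and 58.1 TPM in monolayer, against 65.7 and 66.0 TPM in 3D. Both 3D values fell between the monolayer values, and the interval ran from -11.6% to 21.4% (log2 change 0.051, adjusted p = 0.68). Its 2 transcripts kept nearly the same proportion, ENSRNOT00000086507.1 holding 12.7% ± 0.410 (SD, n = 2) of the signal in monolayer and 14.2% ± 0.824 in 3D culture. Rfx6, which acts in endocrine development downstream of Neurog3, had 71.9 and 72.8 TPM in monolayer, against 69.9 and 63.7 TPM in 3D. Its groups did not overlap, but the interval ran from -17.4% to 3.40% (log2 change -0.11, adjusted p = 0.21). On TPM as deposited the groups of Rfx6 overlapped, with 72.7 and 69.9 TPM in monolayer, against 70.5 and 65.2 TPM in 3D.

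Nkx6-1, Nkx2-2 and Foxa2 were the most alike between the culture forms. Nkx6-1, which guards beta-cell identity against that of alpha cells, had 17.2 and 18.8 TPM in monolayer, against 17.9 and 19.1 TPM in 3D (log2 change 0.039, 95% confidence interval from -0.15 to 0.23). Nkx2-2, which represses non-beta genes with Groucho corepressors, had 33.9 and 32.2 TPM in monolayer, against 32.8 and 32.96 TPM in 3D (log2 change -0.0057, interval from -0.15 to 0.14). Foxa2, a pioneer factor that acts upstream of Pdx1, had 39.9 and 41.4 TPM in monolayer, against 38.9 and 40.4 TPM in 3D (log2 change -0.035, interval from -0.18 to 0.11). The groups overlapped in all 3, with adjusted p of 0.70, 0.95 and 0.65 in limma. On TPM without scaling, Nkx2-2 and Foxa2 had changes of 0.037 and 0.0077 with the opposite sign. There the groups of Nkx6-1 did not overlap, at 17.4 and 18.05 TPM in monolayer, against 18.06 and 19.6 TPM in 3D. These intervals leave room for changes of up to 17.0% upward for Nkx6-1, 10.3% for Nkx2-2 and 7.88% for Foxa2.

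**Figure D3:**
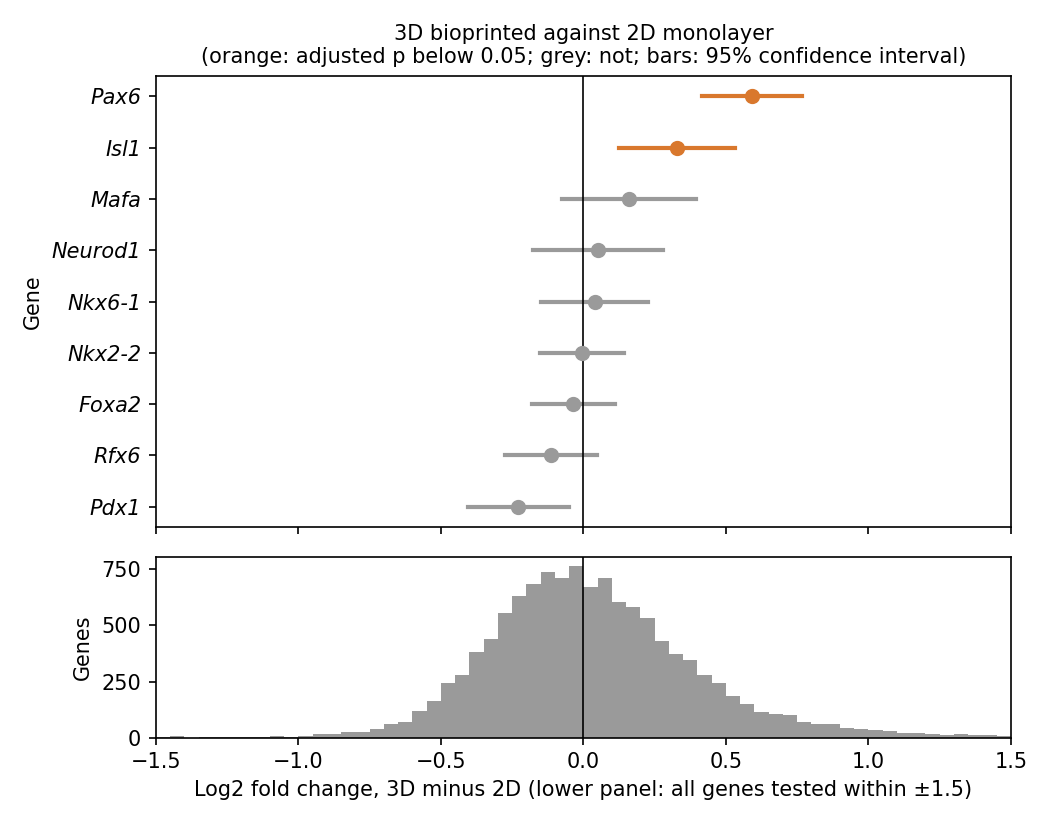
Log2 fold change (3D minus 2D) of the 9 factors with 95% confidence intervals from limma (upper panel), orange for an adjusted p below 0.05 and grey otherwise, above the distribution over all genes tested within ±1.5 (lower panel, number of genes per bin). Pax6 at 0.59 and Isl1 at 0.33 lie to the right, Pdx1 at -0.23 to the left, and the others cluster around 0.

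Genes around the factors were described from 5 lists by role, with no test of a list as a whole. The lists were chosen with earlier results of these data known, so their shares called are no independent evidence. Of the paralogs, 13 of 22 were tested, with 4 higher, 1 lower and 8 not called, and a median log2 change of 0.21. The share called, 38.5%, was close to the 38.0% of all genes. Rfx1 rose from 11.8 ± 1.22 to 17.6 ± 0.793 TPM (SD, n = 2 each; log2 change 0.54, limma adjusted p = 0.010), Mafk, a small MAF protein that can pair with large ones, rose by 0.50 on the log2 scale, Rfx5 by 0.40 and Neurod2 by 0.38. Foxa3 fell, with a log2 change of -0.25 and an adjusted p of 0.042 in limma. Under 7 of the 12 other settings, and with any 1 culture left out, 0 paralogs were called lower. Neurog3, Nkx6-2, Nkx2-5 and Isl2 were listed at 0 in all 4 samples, and Pax4 did not exceed 0.127 TPM in any.

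Among partners and cofactors of the proteins, 19 of 21 were tested, 9 of which rose and 5 of which fell (73.7% called, against 38.0% of all genes). Over the 12 other settings the partners called higher ran from 3 to 10 and those called lower from 0 to 5. Ep300, the histone acetyltransferase p300, rose from 4.42 ± 0.932 to 8.90 ± 0.882 TPM (SD, n = 2 each), with a log2 change of 0.88 and an adjusted p of 0.0098 in limma. The Groucho corepressor genes Tle2 and Tle3 rose by 0.64 and 0.55 on the log2 scale, while Tle1 fell by 0.35. Smarca2, an ATPase of the SWI/SNF chromatin remodeller, rose by 0.47. The other falls of largest size were those of AABR07066180.1, an older name of Kat2b in RefSeq (-0.37), Hdac1 (-0.29) and Psmd9 (-0.28). Outside the rule for naming, 2 direct partners were picked after their values had been seen. Ldb1, the adaptor that binds ISL1, had 130 and 137 TPM in monolayer, against 180 and 169 TPM in 3D (log2 change 0.38, limma adjusted p = 0.0098). Tcf3, whose E proteins pair with NEUROD1, had 29.1 and 30.8 TPM against 29.1 and 29.8 TPM. These 2 do not stand for the rest of the list. There, Tcf12 was called higher (log2 change 0.29, limma adjusted p = 0.041), and Ssbp3 was not called (-0.15, adjusted p = 0.089).

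The 9 genes of kinases and other regulators of these proteins were all tested, and 3 rose and 1 fell. At 44.4% called, this was near the 38.0% of all genes. Hipk2, a kinase that phosphorylates PDX1, rose from 4.09 ± 0.842 to 9.33 ± 0.187 TPM (SD, n = 2 each; log2 change 1.03, limma adjusted p = 0.0058). Foxo1, a forkhead factor that opposes FOXA2 at the Pdx1 gene, had 10.7 and 9.71 TPM in monolayer, against 15.2 and 16.8 TPM in 3D. Gsk3b, which codes for a kinase of PDX1 and MAFA, had 22.5 and 18.1 TPM in monolayer, against 30.9 and 28.9 TPM in 3D. Both passed, with adjusted p of 0.0075 and 0.016 in limma. Csnk2b, the regulatory subunit of casein kinase 2, fell by 0.38 on the log2 scale. Protein levels and phosphorylation were not measured here.

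Of 20 genes known as targets of these factors in beta cells, 19 were listed and 18 tested, and 8 rose, 2 fell and 8 did not pass (55.6% called, against 38.0% of all genes). Prlr, the prolactin receptor, had 23.7 and 12.7 TPM in monolayer, against 56.5 and 53.6 TPM in 3D, a log2 change of 1.61 (limma adjusted p = 0.0098). Gipr, the receptor of the incretin GIP, had 79.6 and 95.02 TPM in monolayer, against 206 TPM in both 3D cultures (log2 change 1.24). Abcc8, the sulfonylurea receptor, and Cacna1d, an L-type calcium channel, rose by 0.82 and 0.63 on the log2 scale. The falls were those of Ins2 (-0.58) and Ppp1r1a (-0.51), a regulator of protein phosphatase 1. Ins1 had 112811 and 131711 TPM in monolayer, against 126566 and 134740 TPM in 3D, with overlapping groups, and reads can be divided among the similar insulin genes by the quantification. Ucn3, a marker of the mature beta cell, was listed at 0 in both monolayer samples and at 0.972 and 0.275 TPM in 3D, below the filter.

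Genes of other islet lineages and of progenitors were mostly near 0. Of 15 listed, 12 had a mean under 1 TPM and were not tested, among them Sox9 (at most 0.774 TPM) and Aldh1a3 (at most 0.0115 TPM), while Irx1, Irx2, Pou3f4, Hhex and Ghrl were listed at 0. All 3 that were tested rose. Gcg, the glucagon gene, had 41.5 and 76.9 TPM in monolayer, against 123 and 152 TPM in 3D (log2 change 1.26, limma adjusted p = 0.022). Hes1, a repressor in the Notch pathway, had 2.62 and 3.03 TPM against 12.4 and 9.66 TPM, a log2 change of 1.64 (adjusted p = 0.0037). Gast, the gastrin gene, had 1.89 and 2.89 TPM against 5.60 and 7.67 TPM, a log2 change of 1.18 (adjusted p = 0.010). Called higher were 30.8% of the paralogs tested, 47.4% of partners, 33.3% of regulators and 44.4% of targets, against 18.5% of all genes tested. Called lower were 7.69%, 26.3%, 11.1% and 11.1% in that order, against 19.5%. Over all 5 lists 27 genes rose and 9 fell. Without 3D replicate 1 these were 3 and 0, and without 3D replicate 2 they were 9 and 1.

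**Figure D4:**
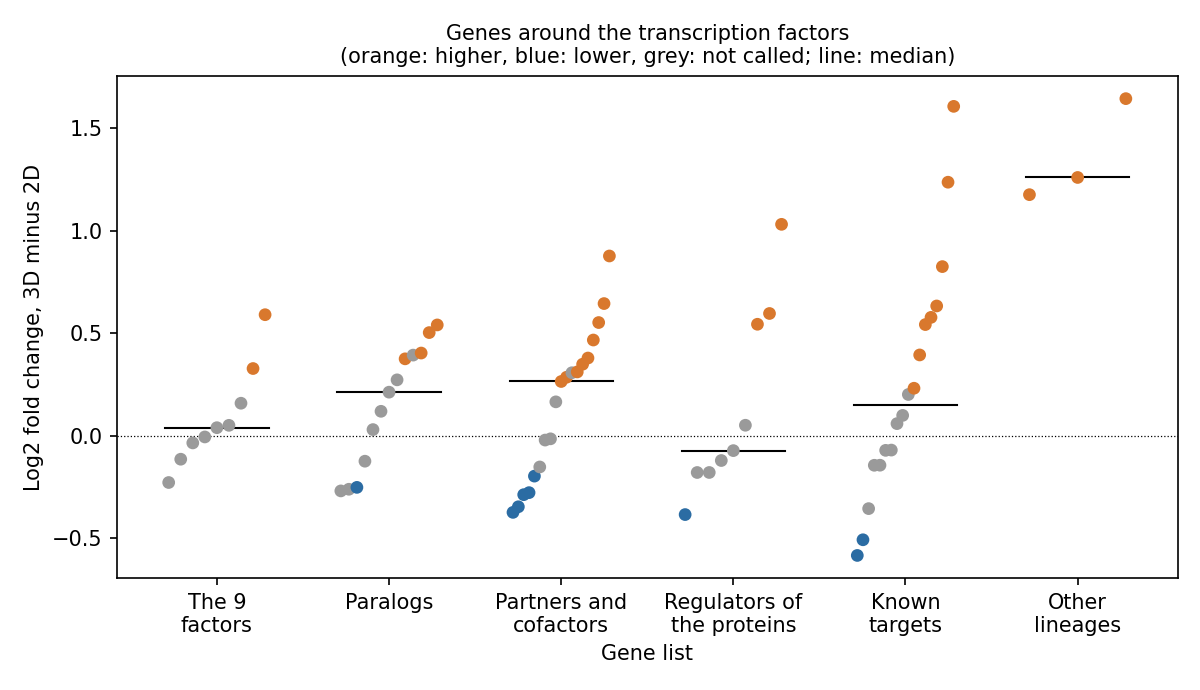
Log2 fold change (3D minus 2D) of each tested gene among the 9 factors and in the 5 lists around them, 1 point per gene, orange for genes higher and blue for genes lower in 3D culture at an adjusted p below 0.05, grey for the rest, with a line at each median. The factors lie between -0.23 and 0.59, while the targets reach 1.61.

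The genes with the pattern most like that of Pax6 over the 4 samples were Zfp810, Lhx8 and Fbxw9, at Euclidean distances of 0.021, 0.040 and 0.048 between centred log2 values. Among 7604 genes with a mean of at least 10 TPM, 36 lay within a distance of 0.1. For Pdx1 they were Eif6, LOC681282 and Tmem14c, at 0.011, 0.012 and 0.014, with 600 genes within 0.1. More genes thus lay near Pdx1 than near Pax6. This distance includes the size of the change, which was smaller for Pdx1, so the counts do not compare the shapes of the patterns.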

How the data were processed

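Polyadenylated RNA was sequenced from 2 monolayer and 2 bioprinted INS-1 cultures with a stranded kit. Per the labels and the methods, the authors checked reads with FastQC 0.11.8 and quantified transcripts with Salmon 1.2 against rn4 with the human insulin gene added. They deposited TPM for 31201 transcripts, summing to 1000000 in each sample. The DESeq2 test that the authors describe needs counts, and was not run here.

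The deposited TPM were summed per symbol. A mean of 1 TPM or more was required of a gene. Samples were then brought to a common scale by trimmed means of M values, unweighted, with 30% of the M and 5% of the A values trimmed from either tail. The test, two-sided, was that of limma 3.58.1 in R 4.3.3 on log2(TPM + 1), using empirical Bayes moderation that follows an intensity trend and Benjamini-Hochberg adjustment over all 11960 genes. Fold changes on this scale understate changes of low genes. The factors and lists were chosen with earlier results of these data known. All 9 factors are named, and in each list up to 4 genes per direction with the largest absolute log2 fold change among those called. Some listed genes are not reported here. The likeness search covered the factors with the highest and lowest log2 fold change. List symbols were matched through older names in RefSeq (GRCr8), from which the promoters also came. The steps were tested on simulated TPM over 11995 genes, where 29.2% of 65 genes changed by 0.5 on the log2 scale, 81.8% of 66 changed by 1 and all 67 changed by 2 were called. Far fewer genes were changed there than were called in the data, and the spread was assumed. These shares therefore do not give the sensitivity of this comparison. Alternatives were the scaling, filter, pseudocount, empirical Bayes options, replicate block, transcript summary, threshold and each culture left out. Figures were drawn with matplotlib 3.10.9.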

Additional observations from a re-analysis of the deposited data

How the results depend on the processing

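Pax6 kept its direction and its call under all 12 other settings (log2 fold change from 0.49 to 0.65). Isl1 kept its direction and passed under 10 of them. At an adjusted p below 0.01 there were 1418 calls over all genes, 724 higher and 694 lower, 1 factor was called higher, and the lists around the factors had 14 higher and 3 lower. Without the filter 1 factor was called higher. Pdx1 made 1 factor called lower on TPM as deposited, with robust empirical Bayes and with the replicate block. Genes of the lists called lower numbered 5 on TPM as deposited and 5 on TPM rescaled without the insulin genes. Nkx2-2 changed sign on TPM as deposited (0.037), on TPM rescaled without the insulin genes (0.050), under a filter of 5 TPM in the mean (0.019) and with the highest transcript per symbol (0.0016), and Foxa2 in the first 2 of these (0.0077 and 0.021). ENSRNOT00000007662.7 of Neurod1, at 0.0064, had -0.032 without the filter. The cause of these shifts was not tested.

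With each culture left out in turn, calls over all genes ran from 136 to 4515, higher from 105 to 2282 and lower from 31 to 2233. Factors called higher ran from 0 to 2 and lower from 0 to 1, and genes of the lists from 3 to 25 higher and 0 to 7 lower. A group left with 1 culture is assumed to vary like the other. Log2 fold changes ran from -0.078 to 0.17 for Neurod1, -0.023 to 0.097 for Nkx6-1, -0.043 to 0.027 for Nkx2-2, and -0.12 to 0.12 for ENSRNOT00000007662.7, each with a change of sign.

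The replicate numbers were not taken as a pairing: the residuals of cultures with a common number correlated at -0.0060. The replicate block moved the calls over all genes from 4541 to 4814 and the call of Pdx1 alone among the 9 factors. TPM keep no depth, so precision rests on 2 cultures per group.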

Other observations

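The summed signal of the 9 factors was 715 and 758 TPM in the monolayer cultures, against 850 and 806 TPM in 3D. Pax6 held 23.7% ± 0.0683 of that sum in monolayer and 31.8% ± 0.939 in 3D culture (SD, n = 2 each), Pdx1 20.4% ± 0.828 and 15.4% ± 0.595, and Mafa 17.9% ± 0.862 and 17.8% ± 1.04. These shares sum to a fixed total, so a rise of Pax6 lowers the others by construction.

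Ratios of TPM within a sample do not depend on the scaling between samples. Pax6 to Pdx1 was 1.196 and 1.13 in the monolayer cultures and 2.16 and 1.96 in the 3D cultures. Mafa to Pdx1 was 0.874 and 0.883 in monolayer and 1.23 and 1.07 in 3D culture, although neither gene passed the test by itself. Isl1 to Pdx1 was 0.344 and 0.351 in monolayer and 0.499 and 0.529 in 3D culture. None of these ratios overlapped between the groups, and all of them have Pdx1 as the denominator. How often ratios of other gene pairs overlap was not computed. Of single genes tested, 75.5% did not overlap. For Pax6 and Isl1 this followed from the levels, since both genes were higher and Pdx1 was lower in both 3D cultures. The ratios were computed after the levels had been seen, and no test was run on them.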
